A study of Homo sapiens with 4 samples.

Results

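The genes described here encode the DNA-binding partners of YAP and the proteins that share or compete for them. They are the TEAD genes TEAD1, TEAD2, TEAD3 and TEAD4, then WWTR1, which encodes TAZ, and the vestigial-like genes VGLL4 and VGLL3. A peak was assigned to one of these 7 genes where its centre lay within 50 kb of the gene body in the human genome build hg19. This gave 46 of the 61551 peaks in 3 deposited peak lists, namely 37 of 48962 in the TEAD1 list, 9 of 10118 in the Avruch YAP list and 0 of 2471 in the Santa Cruz YAP list.

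The peaks come from ChIP-seq, in which crosslinked chromatin is sheared, precipitated with an antibody and sequenced. The cells were H69, given in the labels only as a human cell line and known from the study as an immortalised line of bile duct epithelium. No treatment or genetic change is named in the labels, and each antibody has 1 library. One library was made with a TEAD antibody, called TEAD1 in the design text, one with a YAP antibody called Avruch there, and one with a YAP antibody from Santa Cruz. The labels do not say whether the TEAD antibody tells TEAD1 from the related TEAD proteins. A library made with an unrelated IgG was not analysed here. With 1 library per antibody there is no replicate error and no test, and differences in number between the lists cannot be told apart from differences in sequencing depth, which the peak lists do not give.

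TEAD proteins bind DNA through a conserved TEA domain, recognise the M-CAT element, and have little activity without a partner. YAP and TAZ are the coactivators that dock on TEAD when the Hippo kinases leave them in the nucleus. VGLL4 docks on TEAD through its TDU motifs, competes with YAP and acts as a repressor, while VGLL3 is a further TEAD cofactor with such a motif. Peaks of a TEAD antibody counted here are therefore peaks in or within 50 kb of genes of the TEAD family and its partners. Whether they act on these genes was not tested.

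TEAD1 peaks lay at 7 of 7 genes, Avruch YAP peaks at 5 and Santa Cruz YAP peaks at none. As background, each gene's chromosome was divided into windows as long as the gene with its margins. Of these windows, pooled over the 7 genes, 78.2% held a TEAD1 peak, 34.6% an Avruch peak and 8.97% a Santa Cruz peak. Short genes give more windows and so weigh more in the pooled shares. By gene, the TEAD1 share ran from 67.2% for TEAD3 to 90.7% for the TEAD1 gene. The Avruch share ran from 23.6% to 56.7% for the same genes. The windows include assembly gaps and gene-poor stretches, so they describe the chromosomes and not other genes. A single TEAD1 peak overlapped a YAP peak (1 of 37, 2.70%, exact binomial 95% interval 0.0684 to 14.2), against 3.59% of the whole TEAD1 list. That share was near the background of the list.

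**Figure D1:**
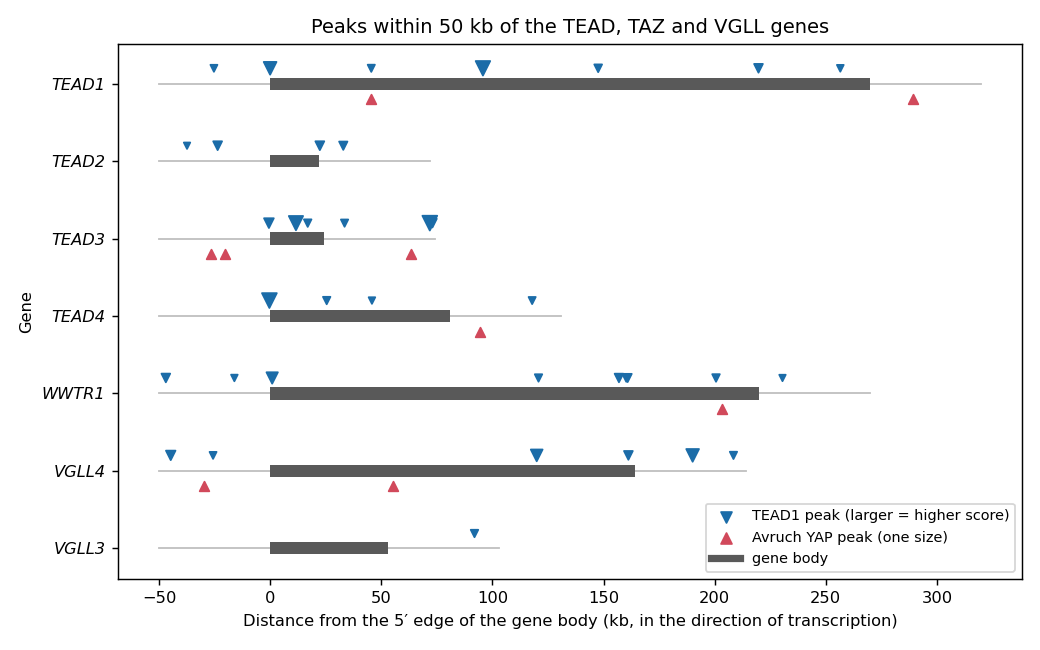
Peaks along the 7 genes, drawn from the 5′ edge of each body in the direction of transcription (x axis, kb); grey bars are gene bodies and thin lines the margins of 50 kb. Blue triangles above a gene are TEAD1 peaks, larger with a higher score, and red triangles below it are Avruch YAP peaks; TEAD1, TEAD3, TEAD4 and WWTR1 have a TEAD1 peak within 1 kb of that edge, and no Santa Cruz peak lay in any window.

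At 4 of the 7 genes, namely TEAD1, TEAD3, TEAD4 and WWTR1, a TEAD1 peak centre lay within 1 kb of the 5′ edge of the gene body. Gene bodies were given to the nearest kb, so rounding alone adds up to 0.5 kb to each such distance. The edge also depends on the annotation: WWTR1 spans 220 kb in the body used here and 207554 bp in RefSeq on GRCh38, so its 5′ edge is less certain than that. On the chromosomes of the 7 genes, 3.19% of windows of 2 kb held a TEAD1 peak centre. That share is over whole chromosomes and not over gene starts, so it does not serve as background for the 4 of 7 genes. The share of all gene starts with a TEAD1 peak was not computed, because no annotation of hg19 was used here. TEAD2, VGLL4 and VGLL3 had no TEAD1 peak centre within 1 kb of that edge.

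Sequence just upstream of a start site is shown for TEAD3, which had a TEAD1 peak at its 5′ edge, and for TEAD2 and VGLL3, which had none. The sequences are the 250 bases before the annotated start in RefSeq on GRCh38.p14, each from the minus strand and written 5′ to 3′. They lie at chr6:35497080-35497329 for TEAD3, chr19:49362417-49362666 for TEAD2 and chr3:86991150-86991399 for VGLL3. The core of the M-CAT element, GGAATG or its reverse complement CATTCC, would stand in capitals.
TEAD3: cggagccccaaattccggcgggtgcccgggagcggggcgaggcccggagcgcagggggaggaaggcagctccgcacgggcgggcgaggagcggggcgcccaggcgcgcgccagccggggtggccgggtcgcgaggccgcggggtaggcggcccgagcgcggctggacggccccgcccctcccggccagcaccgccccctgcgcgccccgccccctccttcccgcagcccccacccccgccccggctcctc
TEAD2: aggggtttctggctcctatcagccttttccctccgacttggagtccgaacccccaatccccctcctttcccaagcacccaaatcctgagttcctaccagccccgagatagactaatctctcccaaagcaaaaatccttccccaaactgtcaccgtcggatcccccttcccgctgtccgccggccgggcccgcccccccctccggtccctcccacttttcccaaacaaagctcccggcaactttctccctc
VGLL3: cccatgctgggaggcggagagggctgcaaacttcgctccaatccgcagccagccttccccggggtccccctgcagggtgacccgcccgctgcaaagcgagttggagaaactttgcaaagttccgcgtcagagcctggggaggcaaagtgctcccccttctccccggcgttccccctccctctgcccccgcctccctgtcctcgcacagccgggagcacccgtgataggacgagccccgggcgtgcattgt
None of the 3 sequences held the core on either strand. RefSeq start sites were matched for 5 of the 7 genes, and none of their 11 upstream sequences held it, against 11.9% of all 35116 sequences in the table. Several of the 11 belong to the same gene, and 11 sequences are too few to separate these shares. The TEAD3 sequence had a GC content of 84.0%, the TEAD2 sequence 60.0% and the VGLL3 sequence 67.6%, beside a median of 58 over the table. The peaks are in hg19 and the sequences in GRCh38, so no peak was placed on a sequence. Whether the TEAD3 peak, centred 0.591 kb upstream of the rounded edge, covers any of the bases shown was not determined. TEAD1 and TEAD4 were not among the start sites used.

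Within the margin, most of the TEAD1 peaks in the top 5% of their list lay at the TEAD genes. Together the 4 TEAD genes had 21 TEAD1 peaks in 797 kb (2.63 per 100 kb), and the 3 cofactor genes had 16 in 737 kb (2.17 per 100 kb). The score of a peak is the authors' own value with no stated unit and was used only to rank peaks within a list. Of the 37 TEAD1 peaks at these genes, 6 ranked among the top 5% of the TEAD1 list (16.2%, exact binomial 95% interval 6.19 to 32.0), against 5% of the list by construction. The interval takes the peaks as independent, although they cluster at 7 genes in 1 library, so it is no test of an excess. The 5% is over the whole list and not over peaks near genes. TEAD genes held 5 of the 6, and VGLL4 held the other, and this split was not tested. Of the 5, the TEAD3 peak with a score of 624 lay 47.8 kb past the 3′ edge, just inside the margin. Which gene that peak belongs to was not tested. In the top 10% were 8 of the 37 (21.6%, exact binomial 95% interval 9.83 to 38.2), an interval that includes the 10% of the list. The peaks added by this wider cut lay at VGLL4 (score 202) and WWTR1 (score 178). A TEAD1 peak with a score of 1316 lay 50.8 kb from WWTR1, just outside the margin. The split thus depends on the cut and on the margin. The median score over the 37 peaks was 74.0, against 67.1 over the list, so the typical peak at these genes was close to the middle of the list. TEAD1 peak width and score rise together over the list (Spearman correlation across 48962 peaks 0.66), and the widths here ranged from 166 to 603 bp.

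**Figure D2:**
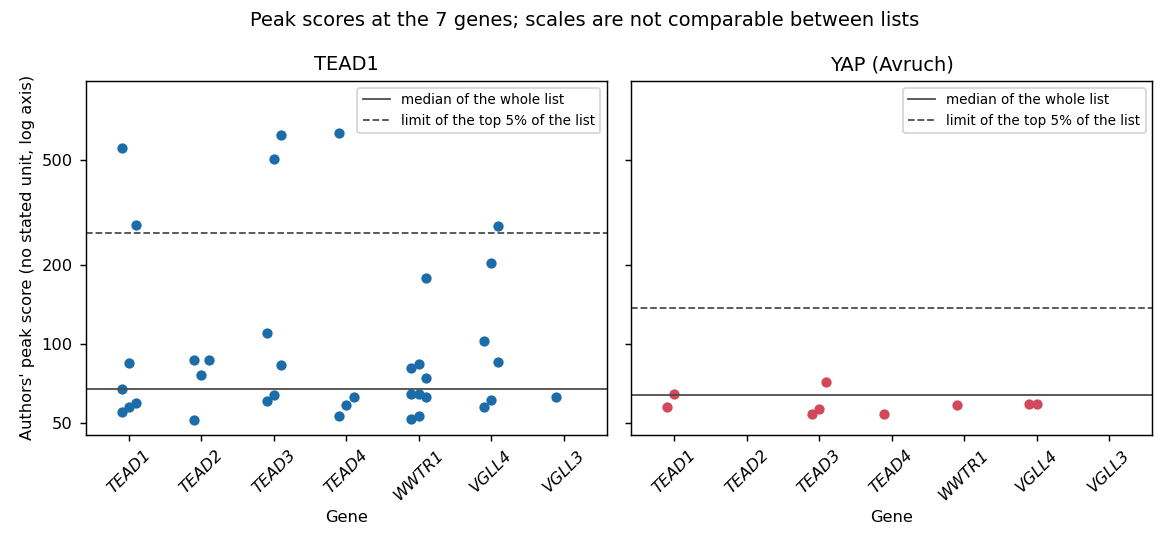
Authors' score of each peak (y axis, log scale, no stated unit) by gene, for the TEAD1 list and the Avruch YAP list; each point is 1 peak, the solid line is the median of the whole list and the dashed line the limit of its top 5%. Of the TEAD1 peaks 6 lie above the dashed line, 5 of them at TEAD genes, whereas the Avruch peaks lie between 53.7 and 71.2, all below it.

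The TEAD1 gene (hg19, chromosome 11, 12696 to 12966 kb) encodes the factor named for the antibody. It had 7 TEAD1 peaks, with scores from 54.9 to 557. The strongest lay inside the body, 95.7 kb from the 5′ edge (12791532 to 12791901, score 557), and ranked 795 in the list. The next was at the 5′ edge itself (12695765 to 12696125, score 284, rank 2211), with its centre 0.0555 kb upstream. These were the gene's peaks in the top 5% of the list, and the other 5 scored at most 84.5, the value of a peak 220 kb into the body (12915617 to 12915820). Of windows of the same length on chromosome 11, 27.9% held at least as many TEAD1 peaks, so the number of peaks was ordinary for the chromosome.

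The one site found with both a TEAD1 and a YAP antibody was also in the TEAD1 gene. The Avruch peak (12741493 to 12741620, score 57.3) lay 45.6 kb into the body and overlapped a TEAD1 peak (12741353 to 12741598, score 59.5) by 106 bp. Their centres were 81 bp apart. Neither peak was strong in its list, since the Avruch peak ranked 7683 of 10118 and the TEAD1 peak 33137 of 48962. The lowest score was 50.01 in the Avruch list and 50 in the TEAD1 list. The overlap covered 82.8% of the Avruch peak and 43.1% of the TEAD1 peak, so the pair was not shared where 50% of both peaks was required. A further Avruch peak lay 19.1 kb past the 3′ edge (12985067 to 12985203, score 64.0), with the nearest TEAD1 centre 32.6 kb away. At least as many Avruch peaks stood in 24.1% of the windows.

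The TEAD4 gene (chromosome 12, 3069 to 3150 kb) carried the highest-scoring TEAD1 peak of all 7 genes at its 5′ edge. That peak (3068443 to 3068806) had a score of 634, ranked 609 in the list and was centred 0.376 kb upstream of the body. The other 3 TEAD1 peaks were weak, with scores of 62.6 at 25.4 kb into the body (3094288 to 3094525), 58.6 at 36.9 kb past the 3′ edge (3186759 to 3186969) and 52.9 within the body. The peak at the 5′ edge was thus the only one counted at TEAD4 in the top 5% of the list. An Avruch peak with a score of 53.7 lay 13.3 kb past the 3′ edge (3163284 to 3163407), and its nearest TEAD1 centre was 23.5 kb away. Of the windows on chromosome 12, 29.5% held as many TEAD1 peaks or more and 35.0% as many Avruch peaks or more. TULP3 and TSPAN9 are the protein-coding neighbours of TEAD4 within 50 kb in RefSeq on GRCh38. Which of these genes a flanking peak belongs to was not tested.

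TEAD3 (chromosome 6, 35441 to 35465 kb) had the densest set of peaks, with 6 TEAD1 and 3 Avruch peaks in 124 kb. In the TEAD1 list 6.52% of windows on chromosome 6 held as many or more, and in the Avruch list 0.870% did. The TEAD1 peak with the highest score (35392928 to 35393455, score 624, rank 637) was centred 47.8 kb past the 3′ edge, and the next (35453131 to 35453723, score 505, rank 919) lay in the body, 11.6 kb from the 5′ edge. The peak at the 5′ edge (35465379 to 35465804) had a score of 109.7. None of the Avruch peaks lay in the body. They were centred 20.6 kb upstream (35485496 to 35485649, score 56.3), 26.5 kb upstream (35491417 to 35491519, score 71.2) and 39.4 kb past the 3′ edge (35401522 to 35401664, score 53.8). The Avruch peak at 26.5 kb was the highest-scoring YAP peak at any of the 7 genes, and its nearest TEAD1 centre was 25.9 kb away. In RefSeq on GRCh38, TEAD3 has 4 other protein-coding genes within 50 kb (PPARD, FANCE, RPL10A and TULP1), and which of these genes a flanking peak belongs to was not tested.

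TEAD2 (chromosome 19, 49844 to 49866 kb) was the TEAD gene with no peak centre inside its body as given and no strong peak. It had 4 TEAD1 peaks in its flanks and no YAP peak. The highest scores were 86.8 for a peak 0.319 kb past the 3′ edge (49843510 to 49843853), 86.4 for one 23.7 kb upstream (49889533 to 49889810) and 76.0 for one 10.9 kb past the 3′ edge (49832959 to 49833300). All were outside the top 5% of the list. The first was nearer to the 3′ edge than the rounding of up to 0.5 kb, so whether it lies in the body was not determined. Chromosome 19 is dense in TEAD1 peaks, with 4.39 per 100 kb, and the TEAD2 window had 3.28 per 100 kb. As many TEAD1 peaks or more stood in 56.3% of the windows, so TEAD2 was not richer in peaks than its chromosome. The nearest Avruch peak was 145 kb from the body and the nearest Santa Cruz peak 98.6 kb. Protein-coding neighbours within 50 kb in RefSeq were SLC6A16, CD37, DKKL1 and KASH5.

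**Figure D3:**
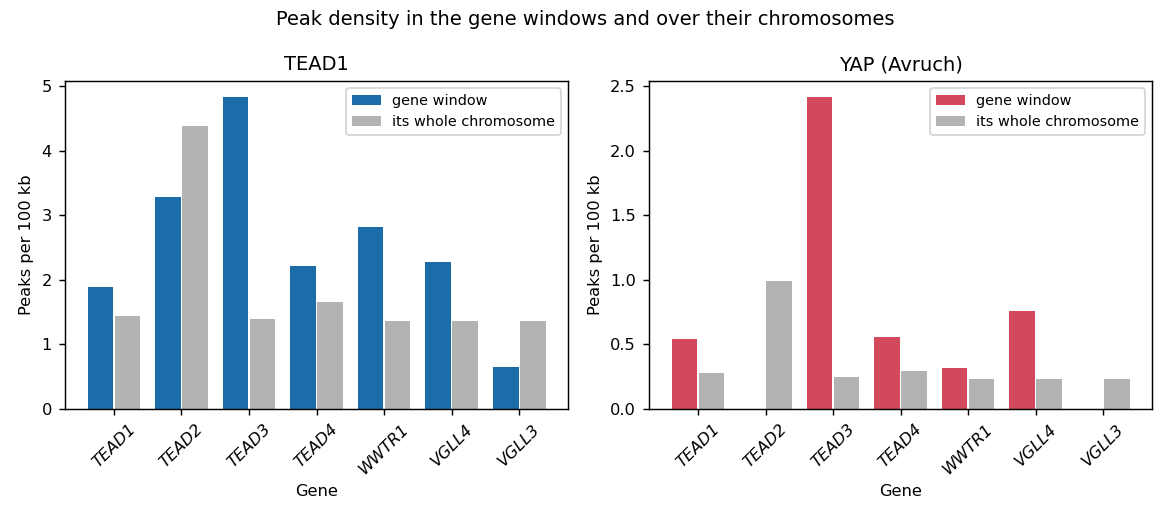
Peaks per 100 kb (y axis, starting at 0) in each gene window (coloured bar) and over its whole chromosome (grey bar), for TEAD1 and Avruch YAP; bars have no error because each antibody has 1 library. TEAD3 has the highest density in both lists, 4.84 for TEAD1 and 2.42 for Avruch, while TEAD2 and VGLL3 lie below their chromosomes.

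WWTR1 (chromosome 3, 149235 to 149455 kb), which encodes TAZ, the paralogue of YAP, had the largest number of TEAD1 peaks, 9 in 320 kb. Of windows of this length on chromosome 3, 14.2% held as many or more. The highest-scoring peak (149453921 to 149454326, score 178, rank 4335) was centred 0.877 kb inside the 5′ edge. The next were 83.4, for a peak 47.0 kb upstream (149501810 to 149502146), and 80.9, for a peak in the body (149297934 to 149298220). The peak in the body belonged to a run of 3 TEAD1 peaks within 4.26 kb (149293960 to 149298220), with no gap above 10 kb between neighbours, and no other gene of the 7 had such a run. WWTR1 has several start sites, and the RefSeq starts used here lay 21.5 and 66.8 kb inside the 5′ end of the RefSeq gene in GRCh38. That gene is shorter than the body used here, so the 5′ ends need not be the same. The peak stands at the outer edge of the body used, and whether it lies at a RefSeq start, inside the RefSeq gene or outside it was not determined. Of the 9 TEAD1 peaks, 6 lay in the body, 2 upstream and 1 past the 3′ edge. TM4SF4, COMMD2 and ANKUB1 are the protein-coding neighbours of WWTR1 within 50 kb in RefSeq. Which of these genes a flanking peak belongs to was not tested.

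The only YAP peak called at WWTR1 was a weak Avruch peak. It lay in the body, 16.9 kb from the 3′ edge (149251797 to 149251939, score 58.2). Its centre was 2.53 kb from the nearest TEAD1 centre, that of a peak with a score of 64.6 (149254271 to 149254516), and they did not overlap. Windows with at least 1 Avruch peak made up 45.7% of those on chromosome 3, so a single peak in a window this long was common.

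VGLL4 (chromosome 3, 11598 to 11762 kb), the TEAD-binding repressor, had 6 TEAD1 peaks and 2 Avruch peaks. The TEAD1 peak with the highest score (11571619 to 11572221, score 279.7, rank 2255) was centred 26.1 kb past the 3′ edge and, at 603 bp, was the widest at the 7 genes. The next (11641869 to 11642300, score 202) lay in the body, 120 kb from the 5′ edge, and a weaker one (11806650 to 11806904, score 103) lay 44.8 kb upstream. No peak stood at the 5′ edge of the longest form. RefSeq lists 5 start sites for VGLL4, spread over the gene, and whether the body peak is near an inner start was not determined. Of the windows, 23.1% held as many TEAD1 peaks or more.

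The Avruch peaks at VGLL4 had almost equal scores. One (11706669 to 11706935, score 59.1) lay 55.2 kb into the body, where the nearest TEAD1 centre was 64.7 kb away, the greatest such distance at the 7 genes. The other (11791549 to 11791702, score 59.0) lay 29.6 kb upstream, 3.90 kb from a TEAD1 centre (11787594 to 11787861, score 57.2). As many Avruch peaks or more were present in 13.1% of the windows. ATG7 and TAMM41 are the protein-coding neighbours within 50 kb in RefSeq.

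VGLL3 (chromosome 3, 86987 to 87040 kb) had a single TEAD1 peak and no YAP peak. The TEAD1 peak (86948143 to 86948387, score 62.7) was centred 38.7 kb past the 3′ edge, and the body itself held none. At least 1 TEAD1 peak stood in 72.5% of windows of this length. The nearest Avruch peak was 109 kb from the body, and the nearest Santa Cruz peak 2076 kb. VGLL3 was thus the gene with the fewest peaks.

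Across the 7 genes 2 of the 9 Avruch peaks scored above the median of their list, and none was in its top 10%. Their scores ranged from 53.7 to 71.2, with a median of 58.2 against 63.8 over the Avruch list. The lowest score in that list was 50.01, so these peaks lay near its lower limit. The share that overlapped a TEAD1 peak was 1 of 9 (11.1%, exact binomial 95% interval 0.281 to 48.2), against 19.4% of the whole Avruch list, and 9 peaks cannot separate these shares. The nearest TEAD1 centre was a median of 20.0 kb away, against 8.98 kb over the 10059 Avruch peaks on chromosomes or contigs with a TEAD1 peak. The first median rests on 9 peaks, 3 of them at TEAD3, and the difference was not tested. The 8 Avruch peaks that overlapped no TEAD1 peak lay between 2.53 and 64.7 kb from a TEAD1 centre. Avruch peaks stood in the bodies of TEAD1, WWTR1 and VGLL4 and in no body of the other genes.

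The margin of 50 kb decided some assignments. The outermost peaks inside it were both near TEAD3, at 48.99 kb (score 83.1) and 47.8 kb (score 624) from the body. The first peaks outside it were a TEAD1 peak 50.2 kb from VGLL4 (score 58.8) and one 50.8 kb from WWTR1 (149183911 to 149184410). The last had a score of 1316, higher than that of any TEAD1 peak counted at the 7 genes.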

How the data were processed

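Peak positions and scores were used as the authors deposited them, 1 list per library, with no header. Per the submitters' processing notes, reads were aligned with Bowtie2 and the build was hg19. The deposited peak names carry MACS. Its version, settings, control library and duplicate handling were not given in the sources used here. No unit is stated for the deposited score. Read depth is unknown. Intervals cover counting error only and take the peaks of a list as independent, which peaks at the same gene need not be.

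Gene bodies came from the selection rule, in kb. Strands came from the RefSeq promoter table, or from general knowledge for TEAD1 and TEAD4. Positions are printed counted from 1. Peaks overlapping by at least 1 bp were called shared. Background windows were laid end to end over each chromosome up to its last peak. All 7 genes, every YAP peak, the 3 strongest TEAD1 peaks per gene and shared peaks were named by rule; other peaks named were chosen after their values were seen. The genes and settings were chosen with earlier results of these data known. Other Hippo genes and genes of similar pattern were planned and not analysed here, as they need an hg19 annotation. Overlap and window counts were tested on simulated data. Python 3.11.15, pandas 2.3.3 and scipy 1.17.1 were used.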

Additional observations from a re-analysis of the deposited data

How the results depend on the processing

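The number of peaks depended on the margin. With the gene body alone there were 17 TEAD1 and 3 Avruch peaks, with 10 kb each side 22 and 3, and with 100 kb each side 58 TEAD1 peaks, 11 Avruch peaks and 1 Santa Cruz peak. In the upper 50% of each list by score 20 TEAD1 and 2 Avruch peaks were left, and none overlapped the other protein (shares of 0%). Both shares were also 0% with an overlap of 50% of both peaks. Under the other settings the TEAD1 share stayed between 2.70% and 5.88% and the YAP share between 11.1% and 33.3%, each inside its interval. Joining peaks with gaps of at most 1 kb left 35 TEAD1 and 9 Avruch peaks. As an alternative added after the data were seen, only windows with a peak of any list were kept as background, and then 94.8% held a TEAD1 peak, 41.9% an Avruch peak and 10.9% a Santa Cruz peak. No paired analysis was possible because each antibody has 1 library and the results come from no test. The few peaks, the unknown depth and gene bodies given to the nearest kb from an annotation that can differ from RefSeq, as at WWTR1, limit the statements.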
